A study of Mus musculus with 11 samples.

Results

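The genes described are 42 genes of the cell division cycle, 20 that act in S phase and 22 that act in G2 and mitosis (G2/M), among the 38924 genes counted by RNA-Seq in mouse cerebellar granule cell precursors (GCps). They were chosen by name as DNA replication and mitosis genes, at a time when earlier results of these data were known. The comparison asks whether their mRNA levels differed when GCps had lost Chd7, which encodes an ATP-dependent chromatin remodeler. GCps were purified at postnatal day 7 from C57Bl/6J mice. RNA-Seq covered 2 libraries of each genotype. The cko libraries came from Math1cre;Chd7flox/flox animals, in which Cre is made in the granule cell lineage, and the control libraries from animals labelled wild type and Chd7flox/+. The extraction notes give the control genotype as Chd7f/f instead, and the difference was not resolved. In both genotypes lobules IX and X were removed. The methods state that cerebella of each genotype were pooled before separation on Percoll, so a library may hold more than 1 animal.

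GCps divide in the external granule layer, driven mainly by Sonic hedgehog from Purkinje cells, and then leave the cycle and become granule neurons. Before S phase the MCM helicase is loaded on origins by CDC6 and CDT1, and E2F factors raise transcription of replication genes once the retinoblastoma protein is phosphorylated. Later in the cycle the MuvB core with B-MYB and FOXM1 turns on mitotic genes through promoter elements called CHR (cell cycle genes homology region), often together with CCAAT boxes bound by NF-Y.

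The 2 groups of genes also differed in their promoters, which were read from RefSeq (GRCm38.p6) as windows of 250 bases before to 50 bases after each start. A window matched 36 of the 42 genes, 18 in each group. Mcm4, Gins2, Ccna2, Aurkb, Foxm1 and Tpx2 had none and are only named here. The letters searched on both strands were TTTCCCGC, TTTCGCGC, TTTGCCGC and TTTGGCGC for E2F, TTTGAA and TTCGAA for CHR, and CCAAT. E2F letters can overlap their own match on the other strand. A gene with more than 1 start counts as a holder if any window matched.

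E2F letters were present in 8 of the 18 S phase genes (44.4%) and 1 of the 18 G2/M genes (5.56%), against 4.41% of the tested genes with a window and 2.60% of all genes with one. CHR letters were present in 4 of the 18 S phase genes (22.2%) and 14 of the 18 G2/M genes (77.8%), against 16.2% of tested genes and 21.7% of all genes. CCAAT was found in 11 S phase genes (61.1%) and 16 G2/M genes (88.9%), against 42.5% of tested genes and 41.1% of all genes. CHR and CCAAT occurred together in 14 of the 18 G2/M genes and in 3 S phase genes, against 8.01% of tested genes. E2f1 held none of the 3 motifs in this window, as did Tyms, Ccne1 and Rfc4 among S phase genes and Birc5 and Nusap1 among G2/M genes. A match describes letters in a window and does not show binding. A missing match does not show that a gene lacks such sites, as only these exact letters in these windows were searched.

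The 200 bases before the start are printed for 5 of these genes because they show both layouts and belong to genes whose levels are described next. Capitals mark the motifs. Mcm6 holds 3 E2F matches, 2 of which overlap, and 2 CCAAT boxes, and Pola1 holds 1 of each.
Mcm6, chr1:128359706-128359905, minus strand: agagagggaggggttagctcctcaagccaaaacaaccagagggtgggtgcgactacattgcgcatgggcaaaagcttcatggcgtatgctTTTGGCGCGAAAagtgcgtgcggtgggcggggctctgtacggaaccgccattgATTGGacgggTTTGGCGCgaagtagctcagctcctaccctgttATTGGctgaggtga
Pola1, chrX:93632156-93632355, minus strand: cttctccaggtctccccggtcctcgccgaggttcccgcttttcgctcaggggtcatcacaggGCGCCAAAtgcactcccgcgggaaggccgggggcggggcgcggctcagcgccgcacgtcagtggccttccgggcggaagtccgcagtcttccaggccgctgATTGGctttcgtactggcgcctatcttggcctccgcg
Mki67, Cdk1 and Cdc20 hold CHR letters downstream of at least 1 CCAAT box. Cdk1 also holds the only E2F match of the G2/M group.
Mki67, chr7:135716380-135716579, minus strand: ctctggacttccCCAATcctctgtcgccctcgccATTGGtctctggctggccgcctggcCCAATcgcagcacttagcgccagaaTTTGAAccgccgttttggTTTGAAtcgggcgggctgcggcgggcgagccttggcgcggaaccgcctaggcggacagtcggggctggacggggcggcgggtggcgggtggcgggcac
Cdk1, chr10:69352913-69353112, minus strand: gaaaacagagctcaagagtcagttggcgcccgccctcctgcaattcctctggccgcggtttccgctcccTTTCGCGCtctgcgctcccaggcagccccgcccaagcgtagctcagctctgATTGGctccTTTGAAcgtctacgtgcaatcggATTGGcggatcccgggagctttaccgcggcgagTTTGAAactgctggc
Cdc20, chr4:118437344-118437543, minus strand: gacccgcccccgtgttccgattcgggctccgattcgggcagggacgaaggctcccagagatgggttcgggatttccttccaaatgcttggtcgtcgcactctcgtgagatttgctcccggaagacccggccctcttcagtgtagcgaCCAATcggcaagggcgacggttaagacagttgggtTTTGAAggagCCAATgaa

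Total counts per library were 73480074 and 62437759 in cko and 77346481 and 61836588 in control GCps, and each of the 42 genes had between 563 and 63629 reads in every library. Levels are given as CPM, counts scaled to library size with TMM factors. Mitochondrial genes took 1.86% and 3.80% of counts in cko and 2.14% and 3.41% in control libraries. Chd7 itself was at 392 and 355 CPM in cko and 322 and 319 CPM in control GCps (edgeR adjusted p = 0.418). Because no source used here names the exons removed by Cre, this count does not check the deletion. The paper reports efficient deletion by other means, namely quantitative RT-PCR on purified GCps of this age, in situ hybridization and CHD7 immunostaining. Xist, made from the inactive X chromosome of female cells, reached 793 CPM in cko replicate 1 only, and the other libraries had 0.548 CPM or less. Marker lists were counted by edgeR's quasi-likelihood test, called at a p under 0.05 after adjustment over all genes (0.809% of genes higher, 0.773% lower), and by DESeq2 at the same threshold (2.84% higher, 2.69% lower). The granule lineage markers were Atoh1, Barhl1, Zic1, Zic2, Pax6, Mycn, Gli1, Ptch1, Neurod1 and Cntn2, a list not limited to genes of dividing cells. Their levels summed to 5212 and 5991 CPM in cko and 6392 and 5952 CPM in control GCps. Of these 10 genes 0 were called by edgeR and 1 was called lower by DESeq2. Both cko libraries lay above both control libraries for 4 and below them for 3, against 22.7% and 21.2% of all genes. At an unadjusted p under 0.05 in edgeR 1 was higher and 2 were lower, against 7.36% and 6.21%. Of the 12 markers of postmitotic granule neurons 11 were tested. EdgeR called 1 lower (Gap43), and DESeq2 called 6 lower and 1 higher (Grin2c). Both cko libraries lay below both control libraries for 10 and above them for 1, against 21.2% and 22.7% of all genes. Their sum was 3145 and 3944 CPM in cko and 5155 and 5293 CPM in control GCps, with Gabra6 at 0 in cko replicate 1 and control replicate 2. Skeletal muscle markers summed to 32.7 and 63.4 CPM in cko and 8.83 and 6.20 CPM in control GCps. EdgeR called 5 of these 10 higher and DESeq2 10. Both cko libraries lay above both control libraries for all 10, against 22.7% of all genes. Endothelial markers summed to 384 and 394 CPM in cko and 296 and 257 CPM in control GCps. EdgeR called 0 of these 8 and DESeq2 called 5 higher. At an unadjusted p under 0.05 in edgeR 7 were higher, against 7.36% of all genes. Oligodendrocyte lineage markers summed to 397 and 416 CPM in cko and 365 and 329 CPM in control GCps, with 1 of 8 called higher by edgeR (Olig2) and 2 by DESeq2. Astrocyte and Bergmann glia markers summed to 832 and 823 CPM in cko and 965 and 1031 CPM in control GCps. EdgeR called 0 of these 8 and DESeq2 called 1 lower. At an unadjusted p under 0.05 in edgeR 3 were lower, against 6.21% of all genes. Neither tool called any of the 8 microglia genes (221 and 230 CPM in cko, 223 and 191 CPM in control), the 6 tested of 8 Purkinje and interneuron genes (59.9 and 61.8 CPM in cko, 46.1 and 55.1 CPM in control) or the 6 meningeal genes (58.5 and 46.7 CPM in cko, 64.9 and 49.3 CPM in control). Of these, 1 Purkinje and interneuron gene was higher at an unadjusted p under 0.05 in edgeR, against 7.36% of all genes. The part of these cells in the levels of cell cycle genes was not tested.

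None of the 42 genes passed the test, although all 42 were expressed well enough to be tested. Most differed little: 36 of 42 had a 95% interval of the log2 fold change (cko over control) inside -0.5 to 0.5, or less than a 1.41-fold change either way, against 43.3% of all 16436 genes tested. By group this was 18 of the 20 S phase genes and 18 of the 22 G2/M genes. The exceptions were E2f1, Fen1, Mki67, Top2a, Cenpe and Nusap1. The median SE was lower over the 42 genes (0.10) than over all genes tested (0.15). The shares inside -0.5 to 0.5 therefore do not compare the size of change alone. By the same edgeR threshold 0.809% of all genes were called higher and 0.773% lower. At an unadjusted p under 0.05, 3 of the 42 were higher (Pola1, Mki67 and Cenpe) and 1 was lower (E2f1), against 7.36% and 6.21% of all genes. DESeq2, which the paper used in an earlier version at an FDR under 0.05, called 1 of the 42, E2f1, as lower. It called 2.69% of all genes lower. E2f1 was also the 1 gene called by edgeR with the replicate number as a block (2.92% of all genes lower). Because the libraries are bulk RNA, fewer cells in a phase and less RNA per cell cannot be told apart. The cko libraries differed in Xist and so were not made from the same animals. No source says whether the control replicates were, and their difference may be technical only. An exact permutation test of 2 against 2 could not give a p below 0.33.

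**Figure D1:**
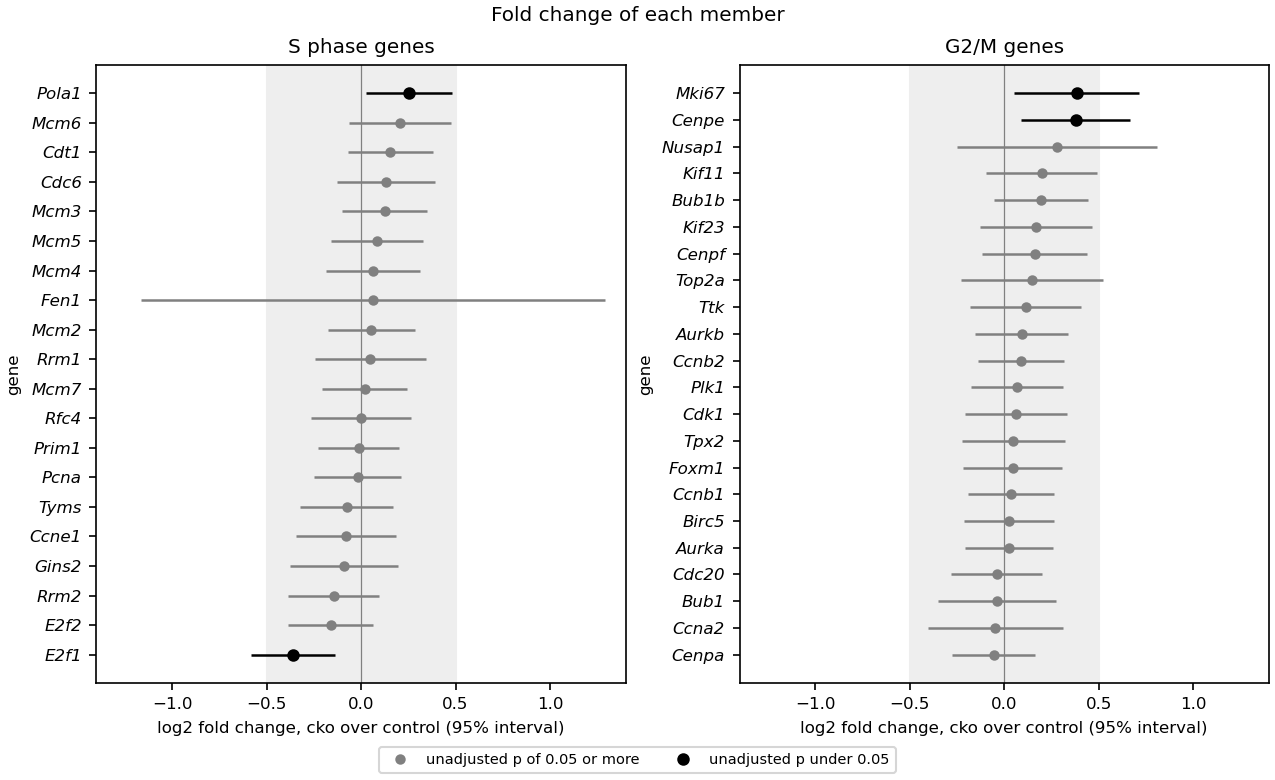
Log2 fold change of cko over control for each gene (points) with its 95% interval (lines), S phase genes on the left and G2/M genes on the right, ordered by fold change. The gray band spans -0.5 to 0.5. Black marks the 4 genes with an unadjusted p under 0.05, and 36 of the 42 intervals lie inside the band.

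In the S phase group the MCM helicase genes, Cdc6 and Cdt1 all had log2 fold changes above 0. These ran from 0.020 (Mcm7) to 0.21 (Mcm6), and none passed the test. The median log2 fold change over the 20 genes was 0.035, against -0.00056 over all genes tested, with a range of -0.36 to 0.25, and 12 of the 20 were above 0, against 49.9% of all genes. The summed level was 3614 and 3620 CPM in cko and 3478 and 3591 CPM in control GCps. Both cko libraries lay above both control libraries for 5 genes (Mcm3, Mcm6, Cdc6, Cdt1 and Pola1) and below them for 3 (Rrm2, E2f1 and E2f2), against 22.7% and 21.2% of all genes. The other 12 overlapped between genotypes.

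Among the 6 subunits of the MCM2-7 helicase, which unwinds DNA at replication forks, log2 fold changes ran from 0.020 for Mcm7 to 0.21 for Mcm6. Mcm6 had 435 and 471 CPM in cko GCps, against 364 and 421 CPM in control GCps. All cko values were above the control values, by a log2 fold change of 0.21 (SE 0.11, 95% interval -0.066 to 0.48, edgeR adjusted p = 0.533). Mcm3 had 235 and 219 CPM in cko and 210 and 206 CPM in control GCps, also without overlap (log2 fold change 0.12, adjusted p = 0.670). Mcm2, at 322 and 296 CPM in cko and 296 and 299 CPM in control GCps, overlapped, as did Mcm4, Mcm5 and Mcm7. Mcm7 lies in a crowded stretch of chromosome 5, where 8.70% of its exons are shared with genes of the other strand and 3.89% with genes of its own strand.

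The loaders of the helicase had small positive log2 fold changes that did not pass the test. Cdt1 had 89.9 and 89.9 CPM in cko GCps and 77.1 and 84.3 CPM in control GCps, a log2 fold change of 0.15 (SE 0.094, adjusted p = 0.579). Cdc6 had 45.7 and 41.1 CPM in cko and 38.4 and 40.8 CPM in control GCps. Its genotypes were separated only by the narrow step between 41.1 and 40.8 CPM. Gins2, a subunit of the GINS complex that joins the helicase at the fork, was at 28.8 and 24.7 CPM in cko and 29.2 and 27.7 CPM in control GCps. As 67.3% of its exonic length is shared with a gene on the other strand, and no source gives the strand setting of the counting, its level is uncertain.

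Of the genes that start and copy DNA strands, Pola1 had the largest log2 fold change. It encodes the catalytic subunit of DNA polymerase alpha, which extends the primers, and lies on the X chromosome (GRCm38 chrX:93304767-93632155). It had 78.0 and 82.2 CPM in cko GCps, against 64.7 and 69.7 CPM in control GCps, and every cko value exceeded every control value. The log2 fold change was 0.25 (SE 0.096, 95% interval 0.024 to 0.48), with an unadjusted p of 0.035 and an adjusted p of 0.311 in edgeR's test. Cko replicate 1, the library with Xist RNA, had the lower of the 2 cko values. The part of sex in the level of Pola1 was not tested. Prim1, the primase subunit that works in the same complex, had 84.1 and 82.3 CPM in cko and 85.8 and 82.0 CPM in control GCps, a log2 fold change of -0.012 (95% interval -0.23 to 0.20).

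Pcna, the sliding clamp that holds polymerases on DNA, was the most abundant S phase gene per length, at 161 CPM per kb of exons in cko and 163 in control GCps. Its 377 and 398 CPM in cko and 401 and 383 CPM in control libraries overlapped, with a log2 fold change of -0.018 (SE 0.097, adjusted p = 0.969). Rfc4, a subunit of the clamp loader, had 65.4 and 59.6 CPM in cko and 66.5 and 58.4 CPM in control GCps, and 12.7% of its exons are shared with a gene on the other strand. Fen1, the nuclease that trims Okazaki fragments, varied more between replicates than any other member. It had 18.4 and 9.15 CPM in cko and 17.0 and 9.46 CPM in control GCps, high in replicate 1 and low in replicate 2 of either genotype. Its interval, -1.16 to 1.29, was the widest of the 42, and 84.2% of its exonic length is shared with genes on the other strand.

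The enzymes that supply deoxynucleotides did not pass the test in either direction. Rrm2, the regulated subunit of ribonucleotide reductase, had 239 and 212 CPM in cko GCps, against 249.3 and 249.4 CPM in control GCps, all cko values being lower (log2 fold change -0.14, SE 0.10, adjusted p = 0.638). Rrm1, the larger subunit, had 394 and 455 CPM in cko and 380 and 441 CPM in control GCps and overlapped. Tyms, which makes thymidylate, had 89.8 and 98.6 CPM in cko and 93.9 and 105 CPM in control GCps. Tyms and Pcna have named pseudogenes in the annotation, as do Ccnb1 and Ccnb2 of the G2/M group, so their counts may be affected by these copies. Pseudogenes under other names were not looked for.

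Of the regulators of S phase entry, E2f1 and E2f2 had the lowest log2 fold changes of the group. E2f1, the activator that drives replication genes, lies on chromosome 2 (GRCm38 chr2:154559407-154569892, minus strand). It had 120.0 and 115 CPM in cko GCps, against 156 and 146 CPM in control GCps, the clearest separation of the 42 genes by p. The log2 fold change was -0.36 (SE 0.094, 95% interval -0.58 to -0.14), a fold of 0.779, with an unadjusted p of 0.0067 and an adjusted p of 0.138. E2f1 passed the threshold in DESeq2 (adjusted p = 0.0258). Its log2 fold change stayed between -0.41 and -0.31 when any 1 library was left out, with adjusted p of 0.199 to 0.689. E2f2, a second activator, had 72.1 and 72.2 CPM in cko and 83.9 and 77.4 CPM in control GCps (log2 fold change -0.16, SE 0.095, adjusted p = 0.562). Ccne1, which encodes the cyclin that starts S phase with CDK2, had 24.1 and 22.5 CPM in cko and 23.8 and 25.5 CPM in control GCps and overlapped.

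**Figure D2:**
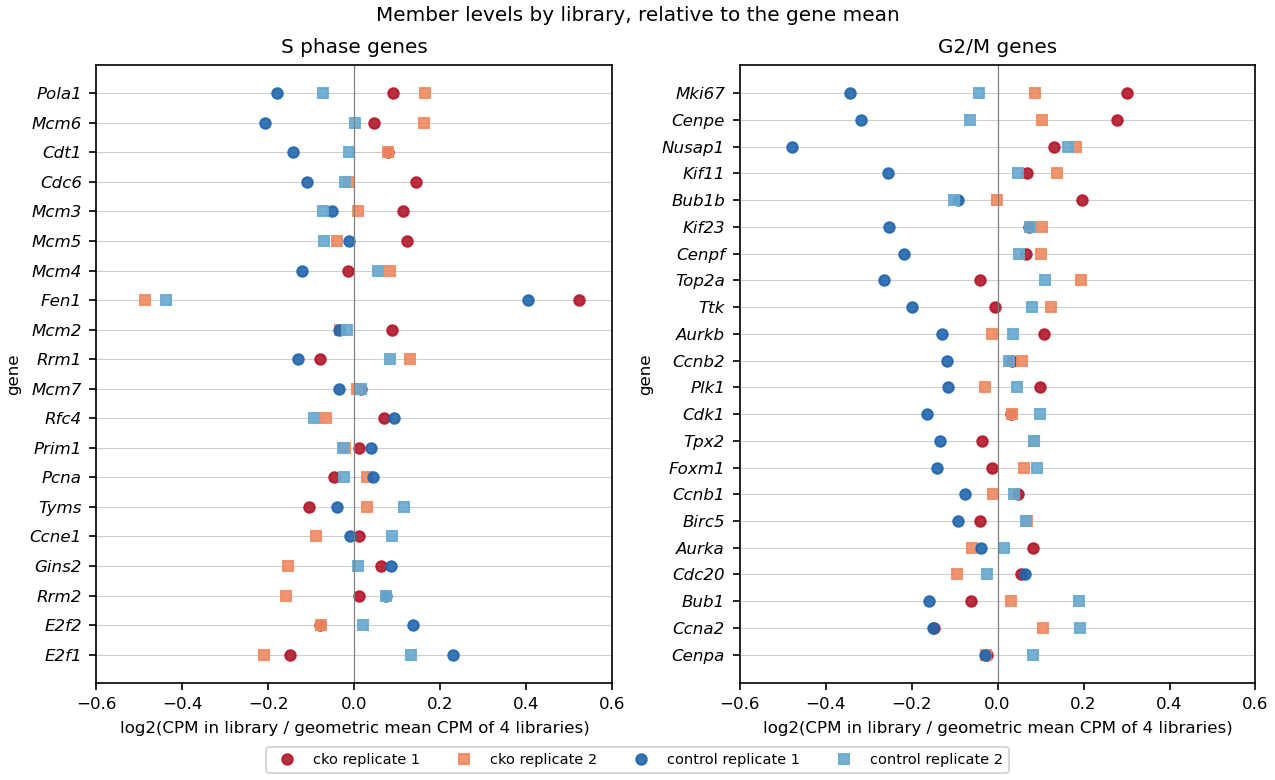
Level of each gene in each of the 4 libraries as log2 of its CPM over its geometric mean (x axis, 0 is the gene's mean), for S phase genes (left) and G2/M genes (right). Circles are replicate 1 and squares replicate 2, in red tones for cko and blue tones for control. Control replicate 1 is the lowest point for 19 of the 22 G2/M genes and for 8 of the 20 S phase genes, and both cko points of E2f1 lie left of both control points.

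In the G2/M group more genes had positive than negative fold changes, but the sizes were small and the excess of positive ones was not seen without control replicate 1. The median log2 fold change over the 22 genes was 0.079, with a range of -0.054 to 0.38, and 18 of the 22 were above 0, against 49.9% of all genes. Both cko libraries lay above both control libraries for 6 genes (Mki67, Ccnb2, Bub1b, Cenpe, Cenpf and Kif11) and below them for 0, against 22.7% and 21.2% of all genes, and 16 overlapped. Control replicate 1 was the lowest of the 4 libraries for 19 of the 22 genes, all but Bub1b, Aurka and Cdc20. Across all tested genes control replicate 1 was the lowest for 25.6%. The summed level was 5098 and 5201 CPM in cko GCps and 4283 and 5115 CPM in control GCps, so that control replicate 2 lay with the cko libraries. Without control replicate 1 the median was -0.0092, with 9 genes above 0 and 13 below, although Mki67, Cenpe and Bub1b stayed between 0.20 and 0.26, and without control replicate 2 it was 0.17, with 21 above and 1 below. The median log2 difference of control replicate 1 minus control replicate 2 was -0.24 over the 22 genes and -0.0084 over the S phase genes.

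Mki67, the gene of the proliferation antigen Ki-67 that coats mitotic chromosomes, had the largest log2 fold change of the 42. It had 723 and 623 CPM in cko GCps, against 462 and 569 CPM in control GCps, with no overlap. The log2 fold change was 0.38 (SE 0.14, 95% interval 0.052 to 0.72), with an unadjusted p of 0.0294 and an adjusted p of 0.285 in edgeR's test. Without control replicate 1 it was 0.24. Top2a, the topoisomerase that untangles sister DNA, was the most abundant of the group in CPM, at 825 and 972 CPM in cko and 708 and 917 CPM in control GCps. The genotypes of Top2a overlapped, and its log2 fold change of 0.15 (95% interval -0.23 to 0.52) turned to -0.030 without control replicate 1.

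The cyclins and kinases that drive entry into mitosis were close to equal. Cdk1, the mitotic kinase, had 154 and 154 CPM in cko GCps, against 134 and 161 CPM in control GCps (log2 fold change 0.060, 95% interval -0.21 to 0.33). Ccnb1, one of its cyclin partners, had 224 and 215 CPM in cko and 206 and 223 CPM in control GCps. Ccnb2, another, had 113 and 115 CPM in cko and 102 and 113 CPM in control GCps, separated by less than 1 CPM. Ccna2, the cyclin of S phase and G2, had 348 and 415 CPM in cko and 347 and 440 CPM in control GCps, with 12.5% of its exons shared with a gene on the other strand. Foxm1, which encodes a transcription factor of mitotic genes, had 177 and 187 CPM in cko and 162 and 191 CPM in control GCps. Aurka, Aurkb and Plk1, kinases of the centrosome, the chromosomal passenger complex and the spindle, had log2 fold changes of 0.025, 0.092 and 0.068. All of the genes in this paragraph but Ccnb2 overlapped between genotypes.

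The spindle checkpoint genes, which delay anaphase until chromosomes are attached, differed little and in both directions. Bub1b had 238 and 207 CPM in cko GCps, against 195 and 194 CPM in control GCps, without overlap (log2 fold change 0.20, SE 0.10, 95% interval -0.051 to 0.44, adjusted p = 0.504). Bub1b was among the 3 genes in which control replicate 1 was not the lowest, and without that library its log2 fold change was again 0.20. It was 0.19 without control replicate 2, 0.10 without cko replicate 1 and 0.29 without cko replicate 2. Bub1 had 108 and 115 CPM in cko and 101 and 128 CPM in control GCps (log2 fold change -0.040), and Ttk had a log2 fold change of 0.11. Cdc20, which activates the anaphase-promoting complex when the checkpoint is satisfied, was the most abundant G2/M gene per length, at 111 CPM per kb of exons in cko and 114 in control GCps. It had 218 and 197 CPM in cko and 219.9 and 207 CPM in control GCps and overlapped (log2 fold change -0.039, SE 0.10, adjusted p = 0.926).

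Among kinetochore and centromere genes, Cenpe had the highest log2 fold change and Cenpa the lowest. Cenpe, a kinesin that aligns chromosomes, had 144 and 127 CPM in cko GCps, against 95.2 and 113 CPM in control GCps, without overlap. The log2 fold change was 0.38 (SE 0.12, 95% interval 0.090 to 0.67), with an unadjusted p of 0.0173 and an adjusted p of 0.223 in edgeR's test, and 0.26 without control replicate 1. Cenpf, a large protein of the outer kinetochore, had 318 and 326 CPM in cko and 261 and 314 CPM in control GCps (log2 fold change 0.16, 95% interval -0.12 to 0.44). Cenpa, the histone H3 variant of centromeres, had 112 and 111 CPM in cko and 111 and 120 CPM in control GCps, a log2 fold change of -0.054. Birc5, which encodes survivin of the chromosomal passenger complex, was at 89.6 and 96.6 CPM in cko and 86.5 and 96.5 CPM in control GCps.

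Of the spindle motors and microtubule proteins, Kif11, the kinesin that pushes spindle poles apart, had 280.5 and 295 CPM in cko GCps, against 224 and 277 CPM in control GCps. The genotypes did not overlap, but the step between 280.5 and 277 CPM was small next to the spread of the control pair. The log2 fold change was 0.20 (SE 0.12, 95% interval -0.095 to 0.49, adjusted p = 0.589) and was 0.054 without control replicate 1. Nusap1, a microtubule-binding spindle protein, had the widest interval of the G2/M group, -0.25 to 0.81. It had 191 and 198 CPM in cko and 125 and 195 CPM in control GCps, so that control replicate 1 alone was apart, and without it the log2 fold change was -0.0071. Kif23, a kinesin of cytokinesis, had 109 and 111 CPM in cko and 86.6 and 109 CPM in control GCps. Tpx2, which nucleates spindle microtubules, had a log2 fold change of 0.047.

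The wider lists of the same processes, none of which shares a gene with the 42, ran alongside them. Of 48 further replication genes 1 was called higher and 0 lower by edgeR (0.809% and 0.773% of all genes) and by DESeq2 (2.84% and 2.69%). At an unadjusted p under 0.05 in edgeR 2 were higher and 1 lower, against 7.36% and 6.21% of all genes. The median log2 fold change was 0.015, with 29 above 0. The called gene was Rfc1, the large subunit of the clamp loader, with 207 and 218 CPM in cko GCps, against 143 and 141 CPM in control GCps. Its log2 fold change was 0.58 (SE 0.092, 95% interval 0.36 to 0.79, edgeR adjusted p = 0.0388). The call was lost when either control library was left out (adjusted p = 0.186 without control replicate 1 and 0.235 without control replicate 2), while the fold change stayed at 0.58 and 0.57. Rfc4, of the same complex, had a log2 fold change of 0.00082.

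Of 55 further mitosis genes 0 were called by edgeR or DESeq2, and 2 were higher and 0 lower at an unadjusted p under 0.05 in edgeR, against 7.36% and 6.21% of all genes. The median log2 fold change was 0.10, with 42 above 0, against 49.9% of all genes. Control replicate 1 was the lowest library for 44 of these 55 genes and for 18 of the 48 replication genes, against 25.6% of all genes. Anln, which encodes the cytokinesis scaffold anillin, had the lowest p, with 105 and 94.8 CPM in cko and 70.6 and 85.2 CPM in control GCps (log2 fold change 0.36, SE 0.12, adjusted p = 0.246). Pttg1, which encodes securin and was chosen after its values were seen, ran the other way. It had 12.3 and 39.8 CPM in cko GCps, against 63.9 and 42.7 CPM in control GCps. The log2 fold change was -1.04 (SE 0.74, 95% interval -3.48 to 1.41, adjusted p = 0.699), and cko replicate 1 alone stood far below the other libraries. Only the fit without cko replicate 2, where cko replicate 1 stood alone for its genotype, called Pttg1 lower. That fit also called more genes in all than the fit with every library.

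Among 17 further genes of the E2F, retinoblastoma and DREAM complexes, which switch these targets on and off, the median log2 fold change was 0.025. EdgeR called 0 of them (0.809% of all genes higher, 0.773% lower). DESeq2 called 1, as lower (2.84% of all genes higher, 2.69% lower). At an unadjusted p under 0.05 in edgeR 1 was higher and 1 lower, against 7.36% and 6.21% of all genes. The one lower was Tfdp2, a partner with which E2F factors bind DNA. Tfdp2 had 136 and 165 CPM in cko GCps, against 210 and 206 CPM in control GCps. All cko values were below the control values, with a log2 fold change of -0.47 (SE 0.12, 95% interval -0.75 to -0.19, adjusted p = 0.126). The gene called by DESeq2 was Tfdp2 (adjusted p = 0.0171). In edgeR the log2 fold change of Tfdp2 was -0.62 without cko replicate 2 and -0.33 without cko replicate 1. Rb1, the retinoblastoma gene, had 97.0 and 153 CPM in cko and 143 and 169 CPM in control GCps and overlapped. Its edgeR adjusted p was 0.668 with all libraries.

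**Figure D3:**
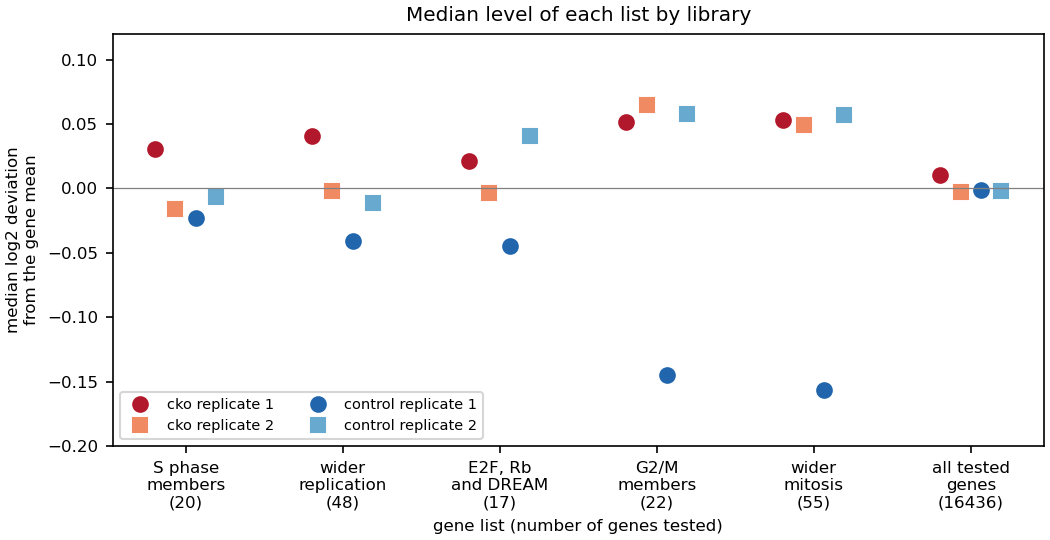
Median over each gene list (x axis, number of tested genes in brackets) of the log2 deviation of a library from the gene's mean over the 4 libraries (y axis), 1 symbol per library. Control replicate 1 lies at -0.14 for the G2/M genes and -0.16 for the wider mitosis list, while the other 3 libraries lie between 0.049 and 0.064. For the S phase genes the 4 libraries lie between -0.023 and 0.030.

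Fold changes ran with exonic length in the mitotic lists, where the length is that of all annotated exons of a gene merged, not of 1 transcript. Spearman's rho between log2 fold change and exonic length was 0.46 over the 22 G2/M genes, 0.26 over the 20 S phase genes, 0.51 over the wider mitosis list and 0.35 over the wider replication list, against 0.17 over 16236 tested genes with a length. This relation was looked at after the fold changes had been seen. The same libraries lie behind all of these points, and genes are not independent replicates, so the values are a description with no p. Length also ran with the difference within the control pair: rho with control replicate 1 over control replicate 2 was -0.50 over the G2/M genes, -0.50 over the S phase genes, -0.13 over the wider mitosis list, -0.28 over the wider replication list and -0.18 over all tested genes. With cko replicate 2 over control replicate 2, which leaves control replicate 1 out, rho was 0.51 over the G2/M genes, 0.16 over the S phase genes, 0.48 over the wider mitosis list, 0.21 over the wider replication list and 0.10 over all tested genes. Within the cko pair, rho with cko replicate 1 over cko replicate 2 was -0.12 over the G2/M genes and -0.38 over the S phase genes. It was 0.21 over the wider mitosis list, -0.069 over the wider replication list and -0.032 over all tested genes. The part of RNA quality or of length in the fold changes was not tested.

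**Figure D4:**
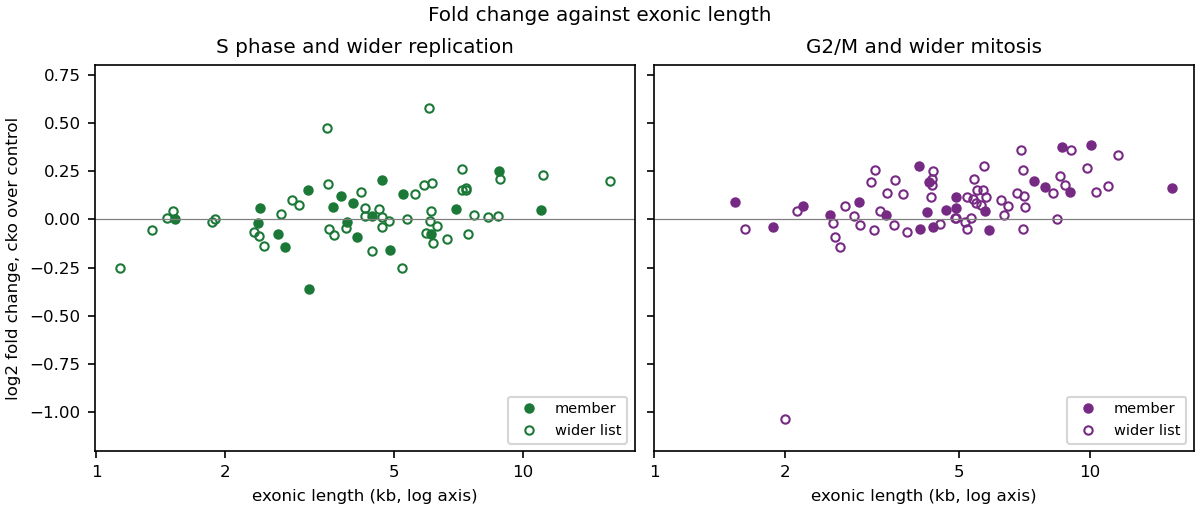
Log2 fold change of cko over control (y axis) against exonic length in kb (x axis, log scale), with filled points for the 42 genes and open points for the wider lists. On the right, Mki67, Cenpe and Anln are long genes with fold changes between 0.36 and 0.38, and Pttg1 is the open point at -1.04.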

How the data were processed

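RNA-Seq counts of 4 libraries of purified P7 GCps were used, 2 cko and 2 control. The deposited values are raw counts of reads per gene (Ensembl 75), not normalized by the authors. Per the methods and the submitters' processing notes, reads were trimmed (Trim Galore 0.4.1), aligned to mm10 (TopHat2 2.0.14) and counted (HTSeq 0.6.1p1, intersection-strict, alignment quality of at least 3). No source used here gives the strand setting, and genes that overlap others on the opposite strand are therefore uncertain. The ATAC-Seq and ChIP-Seq samples were not analysed here.

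Names, coordinates and exonic lengths came from GENCODE vM21 (GRCm38) for 37607 of 38924 genes. Genes were kept with filterByExpr (minimum count 10), scaled by TMM and tested with edgeR 4.0.16 in R 4.3.3 (robust quasi-likelihood test), with Benjamini-Hochberg adjustment over 16436 genes and a threshold of 0.05. The SE is the log2 fold change divided by the square root of F, and 95% intervals use the t distribution. Alternatives were RLE and total count scaling, DESeq2 1.42.0, no filter on low counts, the replicate number as a block and leaving out each library. Steps were tested on simulated data.

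The 42 genes, the further lists and the markers were chosen with earlier results of these data known. Full statistics were given for the 4 genes of each group with the lowest p and the most abundant per length, and for the called gene or the gene with the lowest p of each further list.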

Additional observations from a re-analysis of the deposited data

How the results depend on the processing

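Against 260 genes called in all, DESeq2 called 890 and the test without a filter on low counts 727, and leaving out 1 library gave 83 (without control replicate 2) to 602 (without cko replicate 2). The replicate number as a block gave 1010 (530 higher, 480 lower). The labels give both genotypes the numbers 1 and 2. The deviations of replicate 1 from the genotype means correlated by 0.187 over 16436 genes. Mitochondrial genes took 1.86% of counts in cko and 2.14% in control for replicate 1, and 3.80% and 3.41% for replicate 2. Total counts were higher in replicate 1 of both genotypes. With 2 numbers these values do not show pairing, and whether the numbers mark a batch was not tested. With the block E2f1 was called among the S phase genes (adjusted p = 0.0231, 1 gene, where 2.92% of all genes were lower) and Tfdp2 in the E2F list (1 gene, adjusted p = 0.0224, log2 fold change -0.48). DESeq2 called the same 2 genes, 1 in each list, with log2 fold changes of -0.37 and -0.48, and without a filter Tfdp2 was the 1 gene called in its list (adjusted p = 0.0239, log2 fold change -0.48). No G2/M gene was called under any alternative. With 1 library left out, calls ran from 0 to 1 in the wider replication list, 0 to 1 in the wider mitosis list and 0 to 2 in the E2F list. The S phase median of 0.035 became 0.083 with total count scaling, which moved the median of all genes to 0.049, and 0.0062 to 0.025 without 1 library. Pcna turned to 0.030 and Cdc20 to 0.012 with that scaling, both still below that median, and without 1 library they ran from -0.058 to 0.030 and from -0.11 to 0.033. The causes were not tested. Where a genotype was left with 1 library, that library was assumed to vary like the pair.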
